A study of Canis lupus familiaris with 8 samples.

Results

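Most αβ T cells carry a receptor made of 1 α chain, encoded by TRA, and 1 β chain, encoded by TRB, but some hold a second rearranged TRA transcript. The cells described here, called two-TRA cells, were canine blood T cells in which exactly 2 productive TRA rearrangements and 1 TRB rearrangement were listed. They were chosen by the number of chains listed in the V(D)J library, a measured value, and were compared with one-TRA cells, which had exactly 1 of each. Cells were kept with 500 to 20000 unique molecular identifiers (UMIs, counts of distinct transcript molecules) in the expression library and at most 10% mitochondrial UMIs. Of 31909 such cells, 1262 were two-TRA cells and 16373 were one-TRA cells, and the 2 groups together held 17635 cells. The other cells had no listed chain (5643), TRB alone (5472), 1 TRA alone (2265), 1 TRA with 2 TRB (676) or 2 of each (218).

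The cells came from the peripheral blood of 4 healthy, untreated Beagles and had been sorted for the TCRαβ protein. The only female was dog 1, aged 5 years, and the males were aged 7 (dogs 2 and 3) and 9 years (dog 4). Each dog gave 1 expression library, made by 5' single-cell RNA sequencing, and 1 V(D)J library of receptor transcripts from the same droplets. Both groups of cells therefore came from the same animals and libraries, the dog was the replicate (n = 4), and neither age nor sex could be told apart from the dog.

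During development in the thymus, V and J gene segments of the TRA locus are joined on both chromosomes, and joining can go on until a receptor is selected. Productive TRA rearrangements on both chromosomes can therefore persist in 1 cell. At the TRB locus a productive rearrangement stops further joining on the other chromosome, so a second TRB is much rarer. TRAJ segments are numbered along the locus, with the highest numbers nearest to the V genes, and repeated joining on 1 chromosome moves to lower TRAJ numbers.

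Receptors found in several cells show the pairs most directly. The junctions below (the stretch from the conserved cysteine codon at the end of V to the phenylalanine or tryptophan codon in J, which codes for the third complementarity-determining region and its flanking residues) were taken from the deposited rearrangement lists, 5' to 3'. Capitals mark bases between the aligned end of the V gene and the aligned start of the J gene, which are D segment bases in TRB and bases added at joining. For each cell, the TRA with more UMIs is called the greater chain and the other the lesser chain, a tie being settled by the order in the list and, within a clone, by the summed UMIs. The 5 receptors shown first are the pairs found in most barcodes, with at least 1 from each dog. They include the largest clone of dog 4 (99 two-TRA cells), the largest of dog 3 (24) and the second of dog 4 (22). The others are the largest of dog 2 (21) and a clone of dog 1 (3), where another clone of that dog also held 3.
Dog 4, first clone, greater TRA, TRAV24/TRAJ38: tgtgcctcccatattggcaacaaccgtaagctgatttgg
Dog 4, first clone, lesser TRA, TRAV9-7/TRAJ45: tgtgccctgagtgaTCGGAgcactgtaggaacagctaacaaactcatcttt
Dog 4, first clone, TRB, TRBV3-1/TRBJ2-1: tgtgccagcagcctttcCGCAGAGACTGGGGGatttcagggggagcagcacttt
Dog 3, first clone, greater TRA, TRAV9-9/TRAJ2: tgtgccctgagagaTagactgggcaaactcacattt
Dog 3, first clone, lesser TRA, TRAV9-8/TRAJ2: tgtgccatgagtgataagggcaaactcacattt
Dog 3, first clone, TRB, TRBV3-1/TRBJ2-3: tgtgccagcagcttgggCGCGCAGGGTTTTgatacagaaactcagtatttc
Dog 4, second clone, greater TRA, TRAV43-4/TRAJ38: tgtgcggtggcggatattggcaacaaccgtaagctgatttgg
Dog 4, second clone, lesser TRA, TRAV43-6/TRAJ21: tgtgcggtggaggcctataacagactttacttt
Dog 4, second clone, TRB, TRBV7/TRBJ2-3: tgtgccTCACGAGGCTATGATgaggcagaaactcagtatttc
Dog 2, first clone, greater TRA, TRAV9-8/TRAJ33: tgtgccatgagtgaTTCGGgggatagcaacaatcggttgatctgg
Dog 2, first clone, lesser TRA, TRAV43-1/TRAJ20: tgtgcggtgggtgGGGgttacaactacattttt
Dog 2, first clone, TRB, TRBV24/TRBJ2-6: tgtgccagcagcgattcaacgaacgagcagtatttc
Dog 1, first clone, greater TRA, TRAV9-8/TRAJ27: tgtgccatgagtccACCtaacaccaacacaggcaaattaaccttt
Dog 1, first clone, lesser TRA, TRAV43-1/TRAJ9: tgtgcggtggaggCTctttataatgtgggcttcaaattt
Dog 1, first clone, TRB, TRBV18/TRBJ2-5: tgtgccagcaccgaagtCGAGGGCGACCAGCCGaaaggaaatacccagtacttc

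A further pair of receptors carries a TRAV40 chain, the only V gene that passed the main test of V gene use (below), and was chosen after the values were seen. They are the 2 TRAV40 receptors found in more than 1 barcode, 1 in 4 cells of dog 3 and 1 in 2 cells of dog 4, and in both the TRAV40 chain was the lesser one.
Dog 3, TRAV40 receptor, greater TRA, TRAV24/TRAJ52: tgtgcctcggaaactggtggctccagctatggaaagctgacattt
Dog 3, TRAV40 receptor, lesser TRA, TRAV40/TRAJ52: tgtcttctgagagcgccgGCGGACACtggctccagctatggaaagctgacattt
Dog 3, TRAV40 receptor, TRB, TRBV18/TRBJ2-6: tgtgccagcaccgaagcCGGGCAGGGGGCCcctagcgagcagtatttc
Dog 4, TRAV40 receptor, greater TRA, TRAV43-1/TRAJ43: tgtgcggtcaataactatggccttcacttt
Dog 4, TRAV40 receptor, lesser TRA, TRAV40/TRAJ42: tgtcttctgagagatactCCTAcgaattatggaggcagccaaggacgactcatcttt
Dog 4, TRAV40 receptor, TRB, TRBV1/TRBJ1-4: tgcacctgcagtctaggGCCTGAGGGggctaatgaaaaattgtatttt

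The libraries of dogs 1 and 4 shared receptors. Exactly the same TRB was listed in both dogs 57 times, against 1 time for dogs 2 and 3 and 0 times for every other pair of dogs, and the cells concerned (73 in dog 1 and 1082 in dog 4) had no barcode in common. In dog 1, 7 of 239 two-TRA cells (2.93%) and 40 of 3503 one-TRA cells (1.14%) carried a TRB also listed in dog 4. Of these, 6 and 38 also carried a TRA listed in dog 4. Results are therefore also given without these cells of dog 1 where that changed them. Which of the 2 dogs the shared receptors came from could not be settled, and no cells of dog 4 were left out for this. The T cell label was checked on UMIs summed over the cells of a group and dog, as CPM (UMIs scaled to the same library total). The 10 TCR complex and signalling genes in the files came to 4069.8 to 4362 CPM in two-TRA cells and 3939 to 4539 in one-TRA cells. Monocyte markers summed to at most 2.46 CPM and red cell markers to 0 in two-TRA cells, and platelet markers to at most 2.81. CD79A, a B cell receptor subunit gene, was at 7989 to 10759 CPM in two-TRA cells and 8988 to 10561 in one-TRA cells, while the B cell gene MS4A1 was at most 1.84 and 2.61.

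Two-TRA cells made up 6.39% (239 cells) of both groups in dog 1, 7.26% (321) in dog 2, 6.91% (331) in dog 3 and 7.92% (371) in dog 4, with a mean of 7.12% ± 0.643 (SD, n = 4). The exact binomial intervals of the 4 dogs, 5.62 to 7.22, 6.51 to 8.07, 6.21 to 7.67 and 7.16 to 8.73%, all overlapped one another, those of dogs 1 and 4 the least. These intervals cover counting error only. Since the rule counts listed chains, the share is a description of what was detected.

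The share was higher in deeper cells in every dog. It was 3.63% ± 1.68 (SD, n = 4) in cells below 2000 UMIs, 5.90% ± 0.760 from 2000 to below 4000, 7.42% ± 0.841 from 4000 to below 6000 and 12.7% ± 1.06 from 6000 to 20000 UMIs. In the deepest range the 4 dogs lay between 11.9 and 14.2%, above every value of the range below it (6.70 to 8.63%). If only TRA and TRB chains with at least 3 UMIs were counted, two-TRA cells were 5.85% ± 1.42 of the cells that then had 1 TRB and 1 or 2 TRA.

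**Figure D1:**
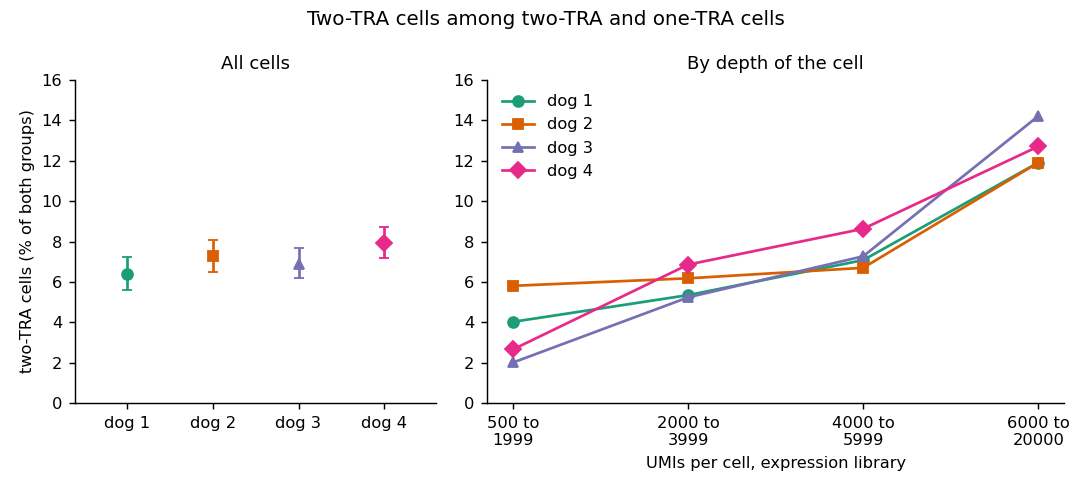
Two-TRA cells as percent of two-TRA plus one-TRA cells, for all cells of each dog (left, bars are exact 95% binomial intervals) and by UMIs per cell in the expression library (right, 1 line per dog). The 4 dogs lie between 6.39 and 7.92% on the left, and on the right each line ends between 11.9 and 14.2% in cells with 6000 UMIs or more.

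Two-TRA cells were deeper than one-TRA cells in both libraries. Median UMIs per cell were 4189, 4636, 4509 and 4491 in two-TRA cells of dogs 1 to 4 and 3816, 4176, 4042 and 4059 in one-TRA cells, a ratio of 1.11 with a range of 1.10 to 1.12 over the dogs. Median genes per cell were 1.08 times and mean TRB UMIs 1.11 times as high. All 3 measures were higher in 4 of 4 dogs, and each had p = 0.13 in an exact two-sided sign-flip permutation test over dogs, the smallest p that 4 dogs allow.

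The 2 TRA chains together gave about 2 times the TRA UMIs of a one-TRA cell. The sum averaged 6.88, 9.05, 8.68 and 11.2 UMIs per two-TRA cell in dogs 1 to 4, against 3.46, 4.87, 4.22 and 4.99 for the only TRA of one-TRA cells, a ratio of 2.03 (1.86 to 2.24). The greater chain alone was 1.27 times (1.16 to 1.40) the only chain. It is the larger of 2 by definition, and the rule asks for a detected second TRA. These TRA values are therefore a description. The TRB chain, which the rule holds at 1 on both sides, was 9.40, 11.9, 11.5 and 11 UMIs in two-TRA cells and 8.54, 10.3, 9.96 and 10.7 in one-TRA cells, and lay closest together in dog 4.

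The lesser chain held 38.1, 37.7, 37.0 and 37.7% of the TRA UMIs of two-TRA cells in dogs 1 to 4. The rule asks for at least 1 UMI of it, and the greater chain averaged 4.26 to 6.99 UMIs by dog. These shares are therefore a description and cannot show whether a lesser chain is a trace. The greater chain had over 4 times the UMIs of the lesser one in 0.951% of cells. A lesser chain with a single UMI was found in 25.9, 14.3, 11.8 and 8.36% of two-TRA cells, with dog 1 highest, and in all 742 of 1262 cells had a lesser chain with at least 3 UMIs. For comparison, the only TRA had a single UMI in 18.7, 9.05, 11.5 and 9.99% of one-TRA cells.

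**Figure D2:**
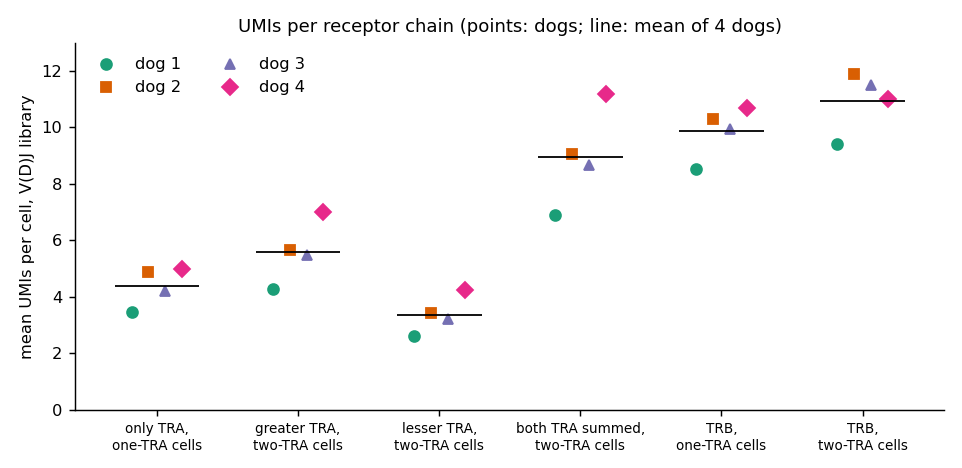
Mean UMIs per cell in the V(D)J library for each receptor chain, by dog (points) and as the mean of 4 dogs (lines). The lesser TRA lies between 2.62 and 4.23 UMIs, below the only TRA of one-TRA cells in the same dog, and both TRA chains summed lie between 6.88 and 11.2 UMIs.

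Cells were also sorted by whether they held a UMI of CD4 or CD8A, the coreceptor genes of helper and cytotoxic T cells: CD4 single-positive (sp), CD8A sp, double-positive (dp) or double-negative (dn). Dp cells were more frequent among two-TRA cells in 4 of 4 dogs, at 2.51, 3.74, 4.53 and 2.70% against 0.942, 2.10, 2.20 and 1.23% of one-TRA cells, a difference of 1.75 percentage points ± 0.394 (SD, n = 4, exact sign-flip permutation p = 0.13). The 2 groups did not overlap. After each cell was thinned to 2000 UMIs the shares were 1.13% ± 0.688 and 0.559% ± 0.359, higher in 3 of 4 dogs (exact permutation p = 0.250), with 6 to 20 shallower two-TRA cells left out per dog. Dp cells also made up 9.75% ± 2.98 of cells with 1 TRA and 2 TRB, whose median depth was 5263 to 5943 UMIs by dog, and 17.4% ± 7.25 of cells with 2 of each, whose median depth was 6926 to 7494. A part of droplets with 2 cells in these shares was not tested.

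Dn cells were less frequent among two-TRA cells, by 3.91 percentage points ± 3.02, in 4 of 4 dogs (exact permutation p = 0.13), and by 1.49 ± 1.49 points after thinning, in 3 of 4 dogs (p = 0.250). CD8A sp cells made up 11.3, 16.2, 27.8 and 42.6% of two-TRA cells and 12.6, 20.9, 31.6 and 24.9% of one-TRA cells, so that only dog 4 was higher. That value rested on the largest clone of dog 4. Without it the share in dog 4 was 24.3% against 24.4%, and two-TRA cells held 2.50 points ± 2.12 fewer CD8A sp cells, lower in 4 of 4 dogs (exact permutation p = 0.13). With 1 cell per clone instead, CD8A sp cells were 1.56 points ± 1.52 more frequent among two-TRA cells (16.4 against 14.8%), higher in 3 of 4 dogs (exact permutation p = 0.250). CD4 sp cells made up 43.8% ± 11.2 and 43.6% ± 8.17, and without that clone they were 3.06 points ± 2.06 more frequent among two-TRA cells. Read the other way, 14.2% ± 1.72 of dp cells, 7.10% ± 0.860 of CD4 sp cells, 6.27% ± 0.669 of dn cells and 7.61% ± 3.49 of CD8A sp cells (5.88% ± 0.187 without the largest clone) were two-TRA cells.

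The TRAJ genes of the 2 chains of a cell lay closer together on the locus than those of chains from different cells. With 1 pair counted per clone, the mean difference of TRAJ numbers was 11.5, 12.3, 12.6 and 10.9 in dogs 1 to 4 (228, 266, 237 and 188 pairs). All pairings of TRA chains from 2 different two-TRA cells of the same dog gave 16.4, 16.4, 15.6 and 16.4, so the cells' own pairs were closer in 4 of 4 dogs and the 2 sets of values did not overlap. Pairs more than 30 apart made up 4.05% ± 0.932 of the cells' own pairs and 13.3% ± 1.07 of the other pairings. Pairs at most 5 apart made up 29.6% ± 2.85 and 20.8% ± 0.733.

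The TRAJ numbers of the greater and the lesser chain moved together across receptors. Pearson's r was 0.474, 0.425, 0.346 and 0.528 and Spearman's rho 0.464, 0.426, 0.330 and 0.517 in dogs 1 to 4, given as a description since receptors of a dog share a library. Of 257 receptors whose greater chain used TRAJ 41 or higher, 50.2% also had a lesser chain there, against 28.1% of all lesser chains. Of 211 with a greater chain at TRAJ 1 to 20, the lesser chain was also there in 37.0%, against 20.2% of all. The distance stayed below that of other pairings in every dog when the lesser chain had at least 3 UMIs (10.7 ± 1.07 against 16 ± 1.54), without dp cells (11.7 ± 0.668 against 16.2 ± 0.475) and among pairs found in at least 2 barcodes (11 ± 1.87 against 15.8 ± 1.34).

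**Figure D3:**
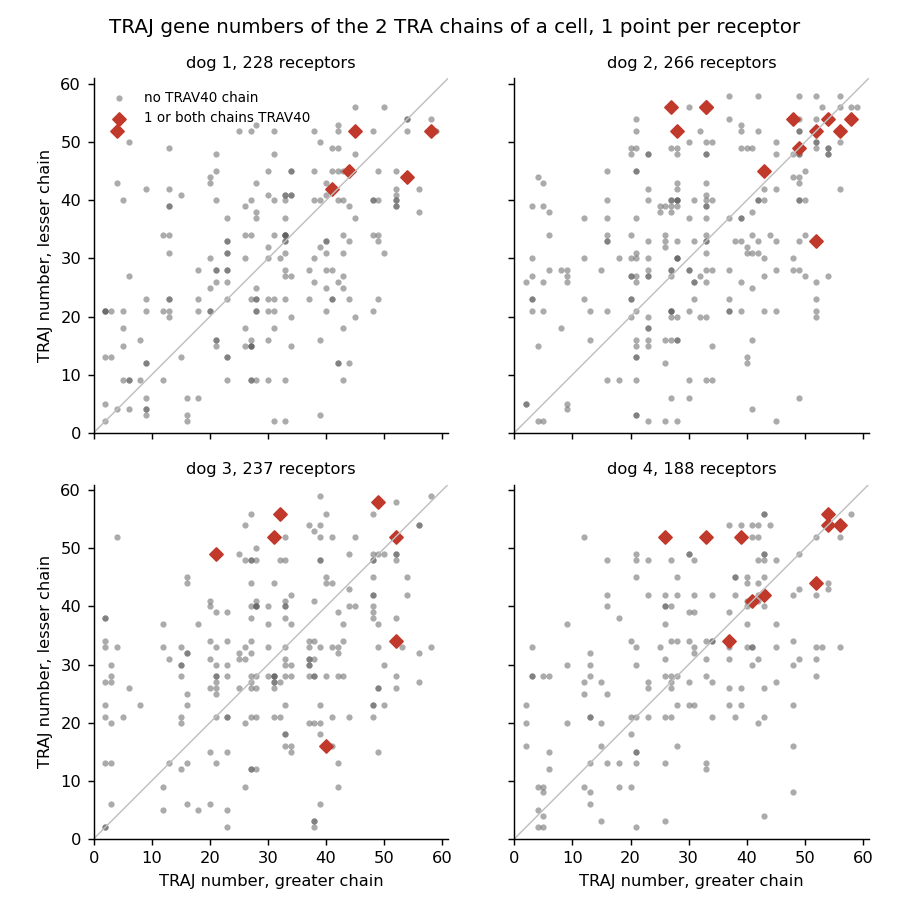
TRAJ gene number of the greater (x) and lesser (y) TRA chain of two-TRA cells, 1 point per receptor and 1 panel per dog, with receptors that hold a TRAV40 chain as red diamonds and the line of equal numbers in grey. Points are sparse in the upper left and lower right corners, where chains would be more than 30 apart (4.05% of receptors on average).

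V genes of the 2 chains were less closely tied. Both chains came from the same TRAV family in 28.1% ± 1.5 of receptors and in 24.8% ± 1.40 of the other pairings. The commonest combinations, counted by receptors, were TRAV43-4 with TRAV9-6 (30) and TRAV43-1 with TRAV43-4 (29), each found in all 4 dogs. Among all cells, 4 pairs shared both V and J gene. None of 187 pairs with junctions of equal length had the same junction, and the closest differed at 5 bases.

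Pairs of TRA chains were found again in other cells. With the same TRB and identical junctions, 76 pairs occurred in at least 2 barcodes of a dog (9, 19, 25 and 23 in dogs 1 to 4), and these held 419 of 1262 two-TRA cells (33.2%). The share differed widely between dogs, at 8.37, 23.1, 36.0 and 55.5% for dogs 1 to 4. In dog 1 this includes 2 barcodes with the receptor of the largest clone of dog 4.

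Among all 681 cells that carried the TRB of one of these 76 pairs, with any number of TRA chains up to 2 and no second TRB, 419 had both TRA chains, 147 only the greater, 90 only the lesser and 25 none. No cell had a different TRA. The largest clone of dog 4 shows the pattern: of 129 cells with its TRB, 99 had both chains, 20 only TRAV24/TRAJ38, 9 only TRAV9-7/TRAJ45 and 1 neither. Its greater chain averaged 7.29 UMIs (2 to 16) and its lesser chain 5.52 (1 to 14). In dog 2, the first clone had 21 cells with both chains, 13 with the greater and 18 with the lesser alone, at 3 and 2.90 UMIs per chain. Some cells counted as one-TRA cells therefore belonged to two-TRA clones.

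Of these pairs, 75 of 76 held no mixture of CD4 sp and CD8A sp cells, and 5 held dp cells. A pair with at most 1 single-positive cell could not show a mixture, and such pairs are among the 75. The first clone of dog 2, with 1 CD4 sp, 1 dp and 19 dn cells, is an example. How many pairs would be unmixed by chance was not tested. In the largest clone of dog 4, 92 of 99 two-TRA cells were CD8A sp, 1 was dp and 6 were dn. In the second clone of dog 4, 18 of 22 were CD4 sp and the rest dn. Where another cell of the dog carried the same TRB, at least 1 TRA of the cell was found again in 488 of 494 two-TRA cells (98.8%) and in 6245 of 6387 one-TRA cells (97.8%).

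The expression library, which the rule did not use for chains, also held the second V gene. For the 3 TRAV genes that carry the same name in both libraries, a UMI of the gene was found in all cells whose lesser chain used it: 60 of 60 for TRAV24, 29 of 29 for TRAV21 and 20 of 20 for TRAV34 (exact lower limits of 94.0, 88.1 and 83.2%). Without the largest clone of dog 4 the count for TRAV24 was 33 of 33 (lower limit 89.4%), and these limits take cells as independent, which cells of 1 clone are not. Two-TRA cells that used the gene in neither chain had such a UMI in 0.648, 0.331 and 0% of cells, the last being 0 of 1221, which allows up to 0.302% by the exact interval. One-TRA cells with another TRAV had it in 1.20, 0.682 and 0.480%. At least 2 UMIs were found in 90.0, 89.7 and 60% of cells with the gene in the lesser chain, and in 83.7, 76.6 and 74.0% of cells that had it as their only TRA. Median depth was 4176 to 4883 UMIs in cells with the gene as lesser chain and 3770.0 to 4154 in cells with it as the only chain.

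Among V genes, TRAV40 was more frequent in two-TRA cells. It made up 1.26, 1.87, 1.51 and 1.62% of their TRA chains in dogs 1 to 4. In one-TRA cells it made up 0.257, 0.342, 0.426 and 0.255%. Every dog was higher and the groups did not overlap (as for 9.09% of TRAV genes). The log2 fold change was 2.27 ± 0.33 (SE, n = 4), with an adjusted p of 0.000217 by edgeR's quasi-likelihood test over the 22 TRAV genes tested, of which 1 (4.55%) was called. With the dog as a block the adjusted p was 0.000408, and with 1 cell per clone it was 0.0126. Over all 12 alternatives it stayed between 1.62e-07 and 0.0300. Within 3000 to 6000 UMIs per cell the shares were 1.5% ± 0.389 and 0.376% ± 0.168.

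TRAV40 cells were rare, and many were two-TRA cells. Of 92 cells with a TRAV40 chain in both groups together, 39 had a second TRA (42.4%), in 6, 12, 10 and 11 cells of dogs 1 to 4. Among the 22 other TRAV genes with at least 50 cells this share ran from 7.01% (TRAV38-2) to 26.8% (TRAV43-6), with a median of 12.4%. Among rarer genes, TRAV9-1 had 15 of 32 and TRAV33 16 of 46. The 39 cells held 35 distinct receptors and included 15 CD4 sp, 11 CD8A sp, 11 dn and 2 dp cells, so they were neither 1 clone nor 1 lineage.

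The TRAV40 chain was mostly the weaker of the pair. Of 38 cells with 1 TRAV40 chain, it had fewer UMIs than its partner in 23, as many in 7 and more in 8, with medians of 3 and 4 UMIs. In one-TRA cells the median was 2 UMIs for TRAV40 and 4 for other genes. TRAV40 chains used high TRAJ numbers, with a median of 52 in two-TRA cells and 54 in one-TRA cells, against 31 for other genes in one-TRA cells. TRAJ 41 or higher was found in 34 of the 38 TRAV40 chains and in 25 of their 38 partners, compared with 28.0% of other chains in two-TRA cells. TRAJ52 alone was used by 13 TRAV40 chains. The 2 receptors printed above are examples, with TRAJ52 in both chains of the first and TRAJ42 and TRAJ43 in the second.

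**Figure D4:**
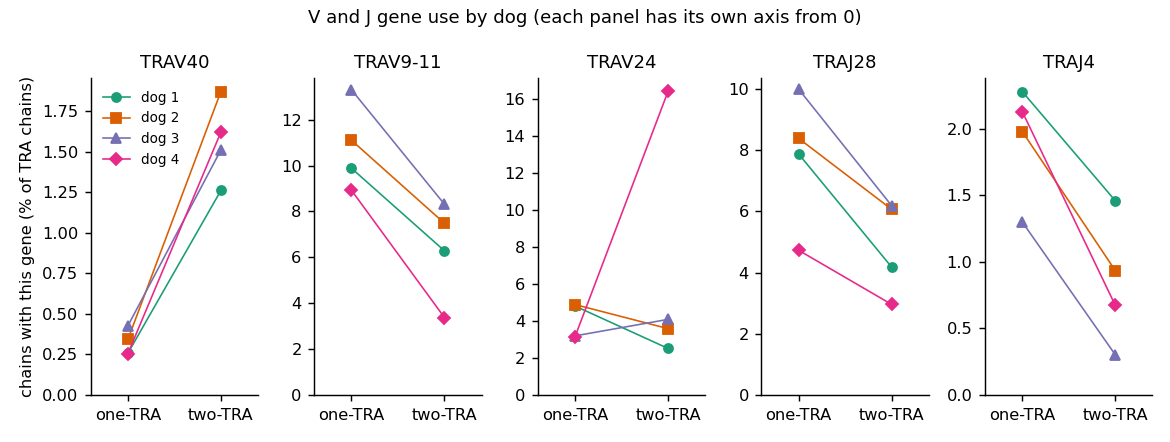
Chains with each gene as percent of the TRA chains of one-TRA and two-TRA cells, 1 line per dog, each panel on its own axis from 0. TRAV40 is higher in every dog, TRAV9-11, TRAJ28 and TRAJ4 are lower in every dog, and TRAV24 differs in direction between dogs, with dog 4 at 16.4% of two-TRA chains.

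TRAV9-11 and TRAJ28, which together form the α chain that the study relates to mucosal-associated invariant T cells, each made up a smaller share of chains in two-TRA cells of 4 of 4 dogs, and neither was called without the block when all cells were used. TRAV9-11 made up 6.28, 7.48, 8.31 and 3.37% of chains in two-TRA cells and 9.88, 11.1, 13.3 and 8.92% in one-TRA cells, without overlap (as for 9.09% of TRAV genes). The log2 fold change was -0.77 ± 0.27 (SE) with an adjusted p of 0.144, 0.0198 with the dog as a block and 0.875 with 1 cell per clone (range over alternatives 0.00274 to 0.875). Without the largest clone of dog 4 it was called also without the block (adjusted p 0.0274). TRAJ28 made up 4.18, 6.07, 6.19 and 2.96% against 7.88, 8.39, 10.0 and 4.73%, lower in 4 of 4 dogs though the groups overlapped. Its adjusted p was 0.362, 0.000545 with the block and 0.877 with 1 cell per clone (range over alternatives 0.000255 to 0.877). The call with the block was lost without the largest clone of dog 4 (adjusted p 0.0588) and with 1 cell per clone (0.747). Chains that joined both genes made up 1.63% ± 0.988 of two-TRA chains and 3.84% ± 1.23 of one-TRA chains. These are shares of chains, and each two-TRA cell gives 2. By cells, 28 of 239, 46 of 321, 54 of 331 and 25 of 371 two-TRA cells of dogs 1 to 4 held TRAV9-11. Against one-TRA cells, TRAV9-11 was then more frequent in two-TRA cells of dogs 1 to 3 and less frequent in dog 4. The value of dog 4 rested on its largest clone. Without that clone, 25 of 272 two-TRA cells there held TRAV9-11, beside 8.98% of one-TRA cells, so dog 4 was then slightly higher too. The joined chain was in 40 of 1262 two-TRA cells and 626 of 16373 one-TRA cells. TRAJ28 is given by chains only. TRAJ4 was also called with the block (0.844% ± 0.488 against 1.92% ± 0.433, adjusted p 0.0379, and 0.302 without it). That call was lost with the block when the largest clone was left out (adjusted p 0.131) or 1 cell was taken per clone (0.329). No TRAJ gene of 39 was called by edgeR without the block (0%), 5 had an unadjusted p under 0.05, and with it 2 (5.13%) were called.

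TRAV24, one of the partners of TRAV40, showed how much 1 clone weighed. It made up 2.51, 3.58, 4.08 and 16.4% of chains in two-TRA cells of dogs 1 to 4, and 4.80, 4.88, 3.19 and 3.15% in one-TRA cells. The log2 fold change was 0.76 ± 0.49 (SE, adjusted p = 0.536), -0.10 without the largest clone of dog 4 and -0.39 with 1 cell per clone. No TRBV gene of 18 and no TRBJ gene of 11 was called by edgeR (0% each, also with the block), with 3 and 1 at an unadjusted p under 0.05. TRBV25 made up 3.26% ± 1.38 and 5.32% ± 0.942, TRBV26 3.50% ± 2.40 and 5.50% ± 0.866, and TRBV28 5.24% ± 2.08 and 6.54% ± 0.532 of TRB chains in two-TRA and one-TRA cells. Each was lower in 3 of 4 dogs, with adjusted p of 0.223, 0.383 and 0.525. With 1 cell per clone, TRAV29 (log2 0.80, adjusted p 0.00117) and TRBJ1-4 (log2 0.68, adjusted p 0.00705) were called, against 0.589 and 0.837 with all cells.

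Few genes differed between the groups over the whole transcriptome. UMIs were summed per dog and group and tested by edgeR over 9851 genes, where fewer cells with a transcript and fewer transcripts per cell cannot be told apart. A single gene (0.0102%) was called, ENSCAFG00000043049, which has no symbol in the files. It was at 20.5, 19.0, 25.2 and 20.2 CPM in two-TRA cells of dogs 1 to 4. In one-TRA cells it was at 3.13, 3.33, 4.48 and 2.55 CPM. It was higher in every dog (as were 6.32% of genes) without overlap (as for 2.24%). Its log2 fold change was 2.65 ± 0.22 (SE, adjusted p = 0.00184). It was called in 17 of 20 alternatives, with adjusted p from 4.32e-24 to 0.208, and not without dog 1 (0.0549), without dog 2 (0.106) or without TRAV24 cells (0.208).

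ENSCAFG00000043049 followed the TRAV40 chain. Among one-TRA cells it had a UMI in 52 of 53 cells with TRAV40 (98.1%) and in 0.570% of cells with other V genes, so its difference and that of TRAV40 in the V(D)J library are 1 observation seen in both libraries of the same cells. In all, 42 of 1262 two-TRA cells (3.33%) and 145 of 16373 one-TRA cells (0.886%) had a UMI. Since V genes are what a second chain adds, their levels in the expression library are given as a description.

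With the dog as a block, which removes the differences between dogs from the spread, 27 genes (0.274%) were called, 14 higher and 13 lower (0.132%) in two-TRA cells. The block with 1 cell per clone gave 29 calls (0.305%), 7 of them lower (0.0735%), and without the largest clone 37 (0.376%), 16 lower (0.162%). V genes without a symbol were sorted out only among the 27. Of the 27 genes, 12 were V genes by symbol or because they had a UMI in at least 90% of cells with a V call and in at most 10% of other cells. The 8 TRAV genes among them were all higher and 3 of the 4 TRBV genes were lower. Of the 15 others, 12 had a symbol. Of these 12, CCL5, ABRACL and PLEKHG5 were higher, and GZMA, GZMB, GZMK, KLRB1, EOMES, PI3, BHLHE40, ADGRG1 and ITGAM lower.

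A pair of genes without a symbol stood out beside these and were chosen after their values were seen. ENSCAFG00000029724 was at 0, 0.614, 0.615 and 0.545 CPM in two-TRA cells of dogs 1 to 4 and at 5.51, 6.82, 7.72 and 12.9 CPM in one-TRA cells, without overlap (as for 2.24% of genes). It was at an adjusted p of 0.214 and at 7.82e-05 with the block (range over alternatives 3.40e-07 to 1). Only 3 UMIs were counted in two-TRA cells, against 580 in one-TRA cells, a ratio of rates of 0.0580 (exact interval 0.0119 to 0.170). By cells, 3 of 1262 (0.238%) and 248 of 16373 (1.51%) had a UMI, a ratio of 0.157 (0.0321 to 0.464). Both intervals pool the dogs. They take UMIs or cells as independent, which UMIs of 1 cell and cells of 1 clone or dog need not be.

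The transcript ENSCAFG00000029724 was most frequent in cells with TRB alone when all dogs were pooled. It had a UMI in 529 of 5472 cells with TRB alone (9.67%, 7.59 to 14.3% by dog) and in 262 of 5643 cells with no chain (4.64%), but in 25 of 2265 with 1 TRA alone (1.10%), although cells with TRB alone were shallower (median 3380.0 UMIs against 4474 in two-TRA cells). Cells with 2 TRB chains also held it, 26 of 676 with 1 TRA (3.85%, 6.12% in dog 3 against 4.89% of the cells with no chain there) and 8 of 218 with 2 TRA (3.67%). Among one-TRA cells it was found in 0.633% at TRAJ 1 to 15, 1.26% at 16 to 30, 1.32% at 31 to 45 and 3.22% at 46 to 60, the last range being highest in each dog, and it was found in 10 of 53 TRAV40 cells (18.9%). The other gene, ENSCAFG00000025128, was seen in 50.7% of two-TRA and 36.7% of one-TRA cells. It was also seen in 49.1% of the deeper cells with 1 TRA and 2 TRB and in 59.6% of those with 2 of each. Pooled over dogs, ENSCAFG00000025128 was at 176 CPM in two-TRA cells, 127 in one-TRA cells, and 138 and 141 in those 2 other groups. Its log2 fold change was 0.45 ± 0.09 (SE, adjusted p = 1 and 0.000437 with the block), it was higher in 4 of 4 dogs (as were 6.32% of genes), and it was not tied to 1 V gene, since it was found in 47.4% of TRAV43-5 and 44.2% of TRAV34 cells.

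Genes of cytotoxic cells were, on balance, lower in two-TRA cells with all cells summed. Of 12 tested, 0 were called by edgeR without the block, while with it 5 were lower and 1 higher. The 5 are the granzyme genes GZMA, GZMB and GZMK, whose products kill target cells, KLRB1, the gene of the receptor CD161, and EOMES, a transcription factor of effector and memory cells. The list's median log2 fold change was -0.48, beside 0.00 over all genes, and 6 of 12 genes were lower in 4 of 4 dogs, as were 7.14% of all genes.

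KLRB1 was at 10.7, 28.2, 78.1 and 44.7 CPM in two-TRA cells of dogs 1 to 4 and at 15.6, 48.4, 142 and 104 CPM in one-TRA cells, lower within every dog, with dogs further apart than groups. The log2 fold change was -0.88 ± 0.66 (SE, adjusted p = 1), or -0.94 ± 0.10 with the block (adjusted p = 4.32e-05). GZMB was at 104, 209, 219 and 356 CPM against 208, 245, 445 and 465 (-0.60 ± 0.35, adjusted p = 1, block 0.00169). GZMK was at 49.8, 198, 289 and 199 CPM against 98.5, 241, 421 and 268 (-0.46 ± 0.47, adjusted p = 1, block 0.000899). CCL5, a chemokine gene of effector cells, went the other way, at 1279, 797, 338 and 972 CPM against 752, 599.6, 359 and 568 (0.57 ± 0.34, adjusted p = 1, block 0.00898).

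These differences depended on how clones were counted. With 1 cell per clone and the block, the log2 fold change was 0.05 for KLRB1, 0.14 for GZMA, -0.02 for GZMB, -0.06 for GZMK and -0.47 for EOMES, none of them called, while CCL5 stayed at 0.55 (adjusted p = 1.41e-14). CCL5 was called in only 4 of 20 alternatives, and with all cells summed it was lower in dog 3. Without the largest clone of dog 4, CCL5 was at 0.25 with the block (adjusted p = 0.299), and KLRB1, GZMA, GZMB and GZMK were called (-0.81, -0.81, -0.50 and -0.36). Several of these genes were also those of TRAV9-11 cells. Among one-TRA cells with TRAV9-11, KLRB1 had a UMI in 36.8% and GZMB in 45.4%. These were the highest values among TRAV genes with at least 20 cells. Pooled over dogs, TRAV9-11 was in 153 of 1262 two-TRA cells and 1775 of 16373 one-TRA cells. Each two-TRA cell has 2 TRA chains that can use the gene, so these counts of cells are not like for like. By cells, two-TRA cells were higher in dogs 1 to 3 and lower in dog 4, but not lower there without its largest clone. Without TRAV9-11 cells on either side, KLRB1 (-0.88, adjusted p 0.00240) and GZMK (-0.56, adjusted p 0.00770) were still called with the block, and GZMA (adjusted p 0.102), GZMB (0.641) and EOMES (0.311) were not.

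**Figure D5:**
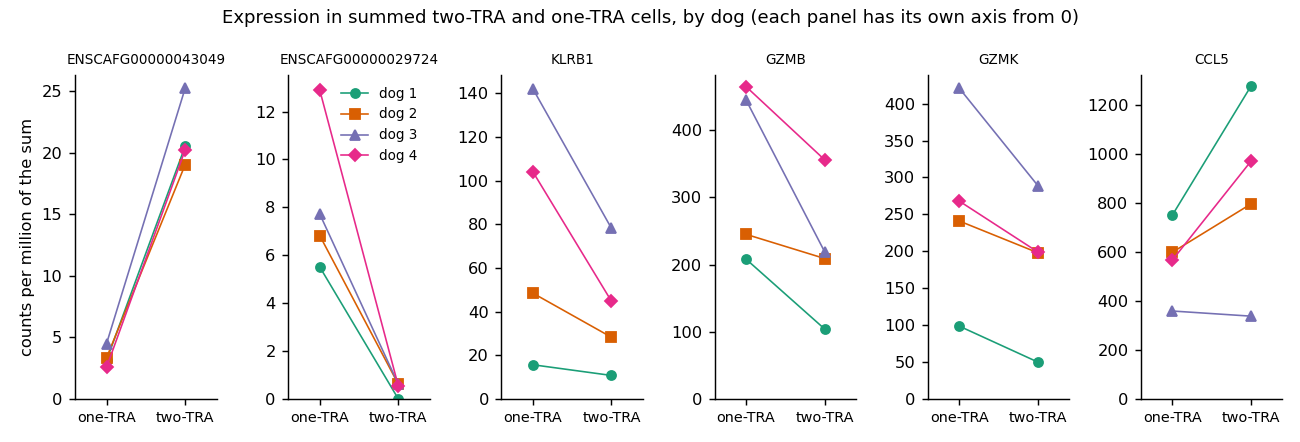
CPM of 6 genes in the summed one-TRA and two-TRA cells, 1 line per dog, each panel on its own axis from 0. ENSCAFG00000043049 is higher and ENSCAFG00000029724 lower in all 4 dogs with no overlap, KLRB1, GZMB and GZMK are lower within each dog but overlap between groups, and CCL5 is higher in 3 of 4 dogs.

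FCER1G, which encodes an adaptor of activating receptors and marks innate-like T cells, was at 40, 56.5, 52.9 and 595 CPM in two-TRA cells and at 46.1, 103, 82.5 and 73.1 CPM in one-TRA cells. Only dog 4 was higher, and the log2 fold change of 1.32 ± 0.74 (SE, adjusted p = 1) was 0.24 without its largest clone and 0.07 with 1 cell per clone. TIGIT, an inhibitory receptor gene, was at 3.90, 1.84, 9.84 and 20.2 CPM against 1.86, 3.27, 2.70 and 3.53 (adjusted p = 1).

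The receptor's own machinery did not differ beyond the spread. Of 10 tested genes of the TCR complex and its signalling, 0 were called with or without the block, and their log2 fold changes lay between -0.15 (CD28) and 0.08 (CD3D), with a median of 0.02. CD3E, a subunit that carries the receptor's signal, was at 1423, 1196, 1280.2 and 1269 CPM in two-TRA cells and 1421, 1179, 1219 and 1279 in one-TRA cells. CD5, which dampens receptor signalling, had a log2 fold change of -0.10 ± 0.09 (SE). Of the early activation genes, 0 of 6 were called. NR4A1, which is induced by receptor signalling, was at 37.1, 42.4, 32.0 and 41.4 CPM against 51.4, 46.4, 43.0 and 52.8. It was lower in 4 of 4 dogs (as were 7.14% of genes) without overlap (as for 2.24%). Its adjusted p by edgeR was 1, or 0.379 with the block. Of the recombination genes only DNTT, which adds bases at junctions, passed the filter on low counts, at 0.545 to 4.92 CPM in two-TRA cells and 0.597 to 4.54 in one-TRA cells (log2 0.25 ± 0.79).

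The remaining lists gave no calls either. Naive T cell genes (4 tested) had log2 fold changes of 0.01 to 0.08, with CCR7 at 0.03 ± 0.36 and TCF7 at 0.08 ± 0.13 (SE). Regulatory T cell genes (4) lay between -0.22 and 0.35, Th1 genes (7) between -0.30 and 0.51, Th2 genes (3) between -0.71 and -0.04, central memory genes (3) between -0.07 and 0.22, innate-like genes (5) between -0.15 and 1.32, exhaustion genes (5) between -0.05 and 1.71 and cell cycle genes (4) between -0.40 and 0.35, each list with 0 called with and without the block.

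Within CD4 sp cells (535 two-TRA cells), 0 of 9035 genes (0%) were called by edgeR, with 244 at an unadjusted p under 0.05, 2 called by DESeq2 and 24 (0.266%) called with the block, 9 of them lower (0.0996%). With 1 cell per clone and the block 27 (0.310%) were called, 10 lower (0.115%). By symbol, 2 of the 24 and 3 of the 27 were TRA locus genes, which a second chain adds. V genes without a symbol were not sorted out here. Of the proliferating cell genes 3 were tested and 0 were called without the block, and TOP2A alone was called with it. TOP2A, a topoisomerase of dividing cells, was at 0, 1.27, 0 and 0 CPM in two-TRA cells and at 11.4, 7.96, 8.52 and 8.09 CPM in one-TRA cells, without overlap (as for 2.94% of genes) and lower in 4 of 4 dogs (as were 6.84%). That is 1 UMI against 270, a ratio of rates of 0.0426 (exact interval 0.00108 to 0.240), at an adjusted p of 0.156 and 0.00101 with the block (range over alternatives 0.000195 to 1). RRM2, a subunit of the enzyme that makes deoxynucleotides, had 2 UMIs against 347 (0.0664, 0.00801 to 0.242) and the histone gene H1-5 had 4 against 764 (0.0603, 0.0164 to 0.155), both at an adjusted p of 1 and called with the block. Both were chosen after their values were seen. These intervals take UMIs as independent, which UMIs of the same cell need not be. MKI67, the marker of cycling cells, was at 42.5, 44.3, 13.2 and 13 CPM against 46.2, 38.1, 25.2 and 33.3 in CD4 sp cells, not called in either fit. KIF15, the gene of a mitotic motor protein, had a log2 fold change of -1.11 ± 0.72 (SE) and was not called either. In CD8A sp cells both listed genes tested had positive values, MKI67 at 175, 33.4, 154 and 64.8 CPM against 51.6, 32.8, 19.7 and 60.7 (1.28 ± 0.44, adjusted p 0.982) and TOP2A at 1.13 ± 0.97 (SE), neither called with or without the block. Over all cells TOP2A was at a log2 fold change of -0.31 ± 0.50 (SE).

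Among cytotoxic genes in the same CD4 sp cells, GZMK was called lower with the block (-0.68 ± 0.60, adjusted p = 1, block 0.0119) and CCL5 higher (1.12 ± 0.54, adjusted p = 1, block 0.0136). The call for GZMK was lost with 1 cell per clone and the block (-0.39, adjusted p = 0.512), and without dog 2 its value was -0.39 without the block. CCL5 was at 59.5, 212, 1.66 and 71.7 CPM against 32.7, 52.2, 41.8 and 39.4, so that the largest gap was in dog 2 and dog 3 was lower. Its value was 0.22 without dog 2 and -0.59 among cells of 3000 to 6000 UMIs, both without the block, and -0.00 with the block without TRAV9-11 cells.

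Within CD8A sp cells (329 two-TRA cells, 92 of them from the largest clone of dog 4), 0 of 7602 genes (0%) were called by edgeR, with 349 at an unadjusted p under 0.05, 2 called by DESeq2 and 3 (0.0395%) called with the block, 1 of them lower (0.0132%). Without the largest clone the block gave 10 calls (0.137%), 4 lower (0.0547%). By symbol, 1 of the 10 was a TRA locus gene, and V genes without a symbol were not sorted out. Of the 12 cytotoxic genes tested, 8 were lower in 4 of 4 dogs, as were 7.98% of all genes, with a median log2 fold change of -0.76 beside 0.01, and 0 were called in either fit. EOMES was at 23.9, 46, 32.2 and 18.5 CPM in two-TRA cells and at 52.1, 61.9, 63.8 and 57.8 CPM in one-TRA cells, without overlap (as for 4.20% of genes), and its log2 fold change was -1.10 ± 0.23 (SE, adjusted p = 0.534, block 0.13) and -0.52 with 1 cell per clone. GZMA (-1.32 ± 0.38) and KLRB1 (-1 ± 0.44) had adjusted p of 0.982 each, and both were called with the block once the largest clone was left out (0.0280 and 0.00329). With 1 cell per clone and the block, 6 of 6254 genes (0.0959%) were called and 0 of them were lower, so neither was called lower.

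The 3 genes called with the block in CD8A sp cells were ENSCAFG00000043049, ADA and PI3. ADA, the gene of adenosine deaminase, was at 104, 113, 69.1 and 102 CPM in two-TRA cells. In one-TRA cells it was at 45.5, 55.8, 39.9 and 54.8 CPM. It was higher in 4 of 4 dogs (as were 6.26% of genes) without overlap (as for 4.20%). Its log2 fold change was 0.95 ± 0.18 (SE, edgeR adjusted p = 0.534, block 0.0419). With the block its adjusted p was 0.0699 without the largest clone and 0.624 with 1 cell per clone. PI3, a protease inhibitor gene, was at 0, 37.6, 34.5 and 30.4 CPM against 28.3, 80.9, 119.8 and 70.1. It was lower in every dog, as were 7.98% of genes (log2 -1.37 ± 0.50, edgeR adjusted p = 0.982, block 0.0342). ENSCAFG00000043049 was at 47.8, 20.9, 71.4 and 13.2 CPM in these cells against 3.33, 2.38, 2.57 and 2.51, at an adjusted p of 0.0554 and 0.00527 with the block.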

How the data were processed

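Unnormalized counts of UMIs by gene and barcode were deposited by the authors (7428 to 8873 barcodes and 26904346 to 35661623 UMIs per dog) and, per dog, a list of productive TRA and TRB rearrangements with counts of UMIs, in 4 expression and 4 V(D)J libraries. Cell Ranger 5.0.1 is named in the submitters' processing notes, the study's methods give CanFam 3.1 as the genome, and the sources used here do not give the germline set behind the V and J calls. The feature list of dog 1 did not match the number of rows of its matrix, so the list of dog 2 was used for all dogs.

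Lists were joined by library and cell barcode, and the filter on cells asked for 500 to 20000 UMIs, no more than 10% of them from 13 mitochondrial genes. No doublet caller was run. Pairs of libraries shared 87 to 120 barcodes (1.00 to 1.43% of a library), as happens when barcodes are drawn from 1 set. Members, gene lists and tests were chosen with earlier results of these data known. UMI counts were summed per dog and group and tested with edgeR 4.0.16 (quasi-likelihood, TMM, filterByExpr, 8 sums, R 4.3.3) with Benjamini-Hochberg adjustment over all genes tested, a call being an adjusted p under 0.05. V and J genes were tested as chain counts by the same test, without TMM. DESeq2 1.42.0, other size factors, no filter, each dog left out, 1 cell per clone, stricter chains and a block for the dog were alternatives. Both groups of a dog come from the same animal and libraries, so the dog pairs them and the blocked value is given beside a result where it changed the call. Shares and medians were compared by an exact sign-flip test. Named genes were members of the lists, genes with a symbol called in the fit without the block that moved the same way in 4 dogs at a mean of at least 10 CPM (largest changes first), V and J genes called, and TRAV24, TRAV9-11, TRAJ28, TRBV25, TRBV26 and TRBV28. Genes called only with the block, and genes without a symbol, were named after their values were seen. In simulated sums with 200 changed genes among 9765 for the comparison of all cells, 82.0% of 2-fold and 99.0% of 4-fold changes were recovered without the block (1 unchanged gene called), and 99.0% of 2-fold changes with it (10 unchanged genes called). The changed genes were drawn from those at a mean of at least 10 CPM in one-TRA cells, with the same fold in every dog. Their spread was that of the fit with the block. These rates do not cover rarer genes or changes that differ between dogs. A gene called with the block in CD4 sp cells is not reported here.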

Additional observations from a re-analysis of the deposited data

Results flagged for a closer look

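In 57 groups of 4 dogs, a dog was looked for whose gap to the nearest other dog exceeded Dixon's critical share of the whole range, which chance gives in about 1 of 20 groups, and 5 were found. FCER1G was at 595 CPM in two-TRA cells of dog 4, against 40 to 56.5 in the other dogs. TRAV24 made up 16.4% of TRA chains in two-TRA cells of dog 4, against 2.51 to 4.08% in the others. Both values belong to the dog with the clone of 99 two-TRA cells with TRAV24, and without that clone TRAV24 was at 4.23% in dog 4. ENSCAFG00000029724 was at 0 CPM in two-TRA cells of dog 1, against 0.545 to 0.615 in the others, each of which is 1 UMI. TRBV25 made up 6.73% of TRB chains in one-TRA cells of dog 3, against 4.73 to 4.97%. Median genes per two-TRA cell were 1567 in dog 1, against 1736 to 1769.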

How the results depend on the processing

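Alternatives that leave out the largest clone of dog 4, the dog 1 cells with a dog 4 TRB or TRAV9-11 cells, and those joining 1 cell per clone with the block, were chosen after seeing the data. With the replicate block for the dog, 27 genes were called instead of 1 over all cells, 24 instead of 0 in CD4 sp and 3 instead of 0 in CD8A sp cells, 2 TRAV genes instead of 1 and 2 TRAJ genes instead of 0. The block together with 1 cell per clone gave 29, 27 and 6 genes, 2 TRAV genes and 1 TRBJ gene. With the block and without the largest clone it was 37, 24 and 10 genes and 2 TRAV genes, without dog 1 cells with a dog 4 TRB 24, 26 and 4 genes, 2 TRAV and 2 TRAJ genes, and without TRAV9-11 cells 16, 20 and 2 genes. Without the block, 1 cell per clone gave 6, 1 and 2 genes, 2 TRAV genes and 1 TRBJ gene, DESeq2 gave 5, 2 and 2 genes, a lesser chain of at least 3 UMIs gave 2 genes over all cells, leaving out TRAV24 cells gave 0, and leaving out the largest clone gave 1 gene in CD8A sp cells and 2 TRAV genes. Without the filter on low counts, 1 gene was called in CD8A sp cells. Leaving out 1 dog gave 0 to 2 genes over all cells, 0 to 1 in CD4 sp and 0 to 1 in CD8A sp cells and 1 to 2 TRAV genes. These counts of genes can include V genes, which a second chain adds. The cause of these shifts was not tested.

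With 1 cell per clone the direction turned for KLRB1 (0.08, and 0.05 with the block), GZMA (0.15 and 0.14), GZMB (0.03), TRAV24 (-0.39 and -0.40), TRBV25 (0.03 and 0.04) and TRBV28 (0.10 and 0.09). TRAV24 ranged from -0.32 (without dog 4) to 1.11 over the dogs left out and also turned without the largest clone (-0.10, and -0.06 with the block). The difference in CD4 sp cells ranged from -1.21 to 4.08 percentage points and that in CD8A sp cells from -3.28 to 4.19 over the dogs left out, and the latter was -2.50 without the largest clone. With chains of at least 3 UMIs the share of two-TRA cells was 5.85% and the lesser chain held 39.1% of TRA UMIs. The excess of pairs of the same TRAV family was 4.49 points without the largest clone, and a TRAV24 lesser chain had at least 2 TRAV24 UMIs in 84.3% of cells on average over dogs. Of 562 values under alternatives for 41 results, 153 for main comparisons and 276 for single genes counted as unchanged. Single genes had to keep their direction and side of the threshold. Counts of calls had to stay within a set fold of the main count. Depth and class differences had to keep their direction, and other values to move by less than the spread between dogs. Of the main comparisons, 45 values moved and 5 reversed. Of the single genes, 66 gained a call, 3 lost it and 14 reversed.

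The share of two-TRA cells was higher in deeper cells, for which the cause was not tested, and 25.9% of lesser chains in dog 1 rested on 1 UMI. Of cells with the TRB of a recurrent pair, 147 and 90 showed only 1 of its TRA chains and may count as one-TRA cells. With 4 dogs an exact test over dogs cannot go below p = 0.13.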
